A study of Homo sapiens with 10 samples.

Results

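Kasumi-1 is a human acute myeloid leukaemia line that carries the RUNX1-RUNX1T1 fusion. Its cells were treated for 48 h with 1 µM JOA, an agent that the labels name only by these letters, or with a control treatment, and RNA was sequenced from 3 libraries per group. The records described here are the rows of the Kasumi-1 table whose label carries a RefSeq accession with the prefix NR_, which RefSeq gives to curated transcripts that are not annotated as coding. Of 29050 rows with a record, 1565 had such an accession, and 11 of them, the rows of NEAT1, MALAT1, MIAT, HOTAIRM1, PVT1, GAS5, DLEU2 and the SNHG genes, were left out. The remaining 1554 rows hold 1521 distinct records. Of these rows, 398 reached 1 FPKM in at least 3 libraries and were compared between JOA and control, and 1156 did not. FPKM is the number of sequenced fragments per 1000 bases of the feature and per 1000000 fragments of the library.

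Noncoding transcripts fall into families that work in different ways. Long noncoding RNAs are made by RNA polymerase II, are often spliced and polyadenylated, and can act as scaffolds, decoys or regulators of neighbouring genes. MicroRNA precursors are hairpins inside longer transcripts, frequently inside introns of coding genes. The nuclease Drosha cuts the hairpin out, Dicer trims it, and 1 arm becomes the mature microRNA that pairs with messenger RNAs through its seed, the stretch near its 5′ end. Small nucleolar RNAs are likewise released from introns and guide chemical modification of ribosomal RNA. Pseudogenes are copies of genes that have lost their coding function, and a noncoding record of a coding gene is a splice form without a full reading frame. In myeloid leukaemia, microRNA clusters such as the one in MIR17HG and the snoRNA host DANCR, a long RNA known for holding progenitor cells undifferentiated, are well-known members.

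The label noncoding held for only some of these rows. By gene symbol and RefSeq gene type, the 398 rows comprised 127 noncoding records of coding genes, 89 pseudogenes, 60 antisense, divergent, intronic or overlapping transcripts, 59 microRNA records, 29 LINC records, 17 other named transcripts, 4 microRNA hosts, 2 structural small RNAs, 1 small nucleolar RNA and 10 rows with no symbol. Among the 127, the deposited values show the length of the feature that was counted, and in 123 of the 125 with a GENCODE transcript of the record that length exceeded the record's own (median ratio 1.37). For 124 of the 127, the gene lay on no other row of the table. These rows thus appear to hold the whole gene, messenger RNA included, and are called whole-gene rows below. TUG1, a well-known long noncoding RNA, is counted with them because RefSeq types its gene as coding.

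Library totals ran from 16531960 to 18089557 fragments, and the 1554 rows held 1.13 to 1.23% of them. Myeloid identity was visible in the table, where 5 of 10 myeloid marker genes lay on a row and all 5 exceeded 1 FPKM, led by MPO at 5621 FPKM. No T cell or fibroblast marker lay on a row, the 3 erythroid markers on a row were under 0.1 FPKM, the B cell markers reached 1.60 FPKM (PAX5), and the epithelial marker EPCAM stood at 39.0 FPKM. The summed myeloid markers ran from 5773 to 6396 FPKM in control and from 5537 to 6144 FPKM in JOA libraries. Nothing states that the replicates are separate cultures, and the p-values here therefore speak for the scatter of these libraries alone, part of which may be technical.

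The microRNA rows are hairpin-sized. In 47 of 48 rows with a RefSeq hairpin, the counted length equalled that of the hairpin, and the 59 rows ran from 53 to 137 bases. The kit named in the labels is one for messenger RNA, so these rows are read here as fragments that cover the hairpin and not as mature microRNAs. The hairpins of 5 loci on which the results below turn are shown 5′ to 3′ from RefSeq (GRCh38.p14), with the annotated mature arms in capitals.
MIR6797: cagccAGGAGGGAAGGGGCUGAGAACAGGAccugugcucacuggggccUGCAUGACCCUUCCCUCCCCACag
MIR4482: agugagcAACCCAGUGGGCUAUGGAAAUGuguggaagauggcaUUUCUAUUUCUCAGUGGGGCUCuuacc
MIR6739: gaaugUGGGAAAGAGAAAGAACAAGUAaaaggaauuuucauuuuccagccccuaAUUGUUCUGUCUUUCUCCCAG
MIR3176: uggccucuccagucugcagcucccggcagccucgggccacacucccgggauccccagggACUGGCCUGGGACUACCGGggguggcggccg
MIR3153: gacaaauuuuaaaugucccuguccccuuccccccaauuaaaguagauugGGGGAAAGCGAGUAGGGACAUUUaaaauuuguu

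These hairpins lie at chr19:41869627-41869698 on the plus strand in an intron of RPS19 (MIR6797), at chr10:104268336-104268405 on the minus strand outside any annotated gene (MIR4482), at chr1:201863373-201863447 on the plus strand in an intron of IPO9 (MIR6739), at chr16:543277-543366 on the plus strand in an intron of CAPN15 (MIR3176), and at chr9:89312225-89312306 on the plus strand in an intron of CKS2 (MIR3153). RefSeq lists 75 mature sequences for 54 of the 58 tested microRNA loci, with 74 distinct seeds. The 1 seed found at more than 1 locus, GGGAAAG, is shared by MIR3153 and MIR6739, whose mature sequences are shown with the seed (bases 2 to 8) in capitals beside that of MIR181D, the locus here that belongs to the miR-181 family known from blood cell development.
hsa-miR-3153: gGGGAAAGcgaguagggacauuu
hsa-miR-6739-5p: uGGGAAAGagaaagaacaagua
hsa-miR-181d-5p: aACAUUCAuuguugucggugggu

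By level, 6 of the 10 highest NR rows were whole-gene rows. The 10 were YBX1, which encodes a cold-shock RNA-binding protein, RPL13AP5, a processed copy of the ribosomal protein gene RPL13A, DANCR, PTGES3 (the p23 co-chaperone), EGFL7, a secreted protein whose gene hosts a microRNA of blood stem cells, LMNB1 (lamin B1), FXYD5, LINC01150, MIR621 and TCEA1, a transcription elongation factor. YBX1 stood at 890.1, 1014 and 967 FPKM in control and 968, 893 and 919 FPKM in JOA libraries. RPL13AP5 stood at 289.6, 225 and 225 FPKM in control and 238, 250.5 and 207 FPKM in JOA libraries, and its reads may belong in part to RPL13A, since how reads that map to both were assigned is not given in the sources used here. The ranges of the 2 groups overlapped for both, and no difference passed a test. LINC01150 ran from 47.2 to 71.0 FPKM over the 6 libraries, with overlapping groups, on a row of only 315 bases.

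Among the tested rows the median level was 3.50 FPKM, and 305 of 398 were at 1 FPKM or more in all 6 libraries. Passing the filter depended on the JOA libraries alone for 6 rows (MIR6797, MIR6813, MIR3174, MIR181D, HSPA2-AS1 and CXorf65), with every control library under 1 FPKM, and on the control libraries alone for 1. Such rows had to differ to be tested at all, so their values are given as a description and no p of theirs is printed. Rows with only 1 control library at 1 FPKM or more, such as SNORD121A, MIR4326, MIR4482 and LOC729737, also needed JOA libraries to be tested. For these named rows no p is printed either, though they stay in the counts. SP2-AS1 and BMS1P1 were the named rows just inside the filter, where the filter's deciding library, the third from the top, held 1.00 and 1.03 FPKM. MIR5584 and SEC14L1P1 were just outside it, at 0.983 and 0.974 FPKM.

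The comparison of JOA with control asked which of these transcripts changed over 48 h. Without pairing, limma on log2(FPKM + 1) found none of the 398 rows past an adjusted p of 0.05 (0 of all 12130 tested rows, 0%), with 0.115 the lowest adjusted p of an NR row. At an unadjusted p under 0.05 there were 79 NR rows, 67 higher and 12 lower with JOA, beside 16.4% of all tested rows (11.7% higher and 4.67% lower). Libraries with the same replicate number deviated together, so the fit was repeated with the number as a replicate block. In that paired test 41 NR rows passed, 31 higher and 10 lower, or 10.3% beside 8.16% of all tested rows (6.11% higher and 2.05% lower). Without the 7 rows that met the filter through 1 group alone, 36 of 391 passed (26 higher and 10 lower, 9.21%). The 36 still include rows that needed JOA libraries to meet the filter, SNORD121A, MIR4326, MIR4482 and LOC729737 among them. The NR share was thus near the background, and the verbs rose and fell below refer to this paired test. Leaving out any 1 of the 3 pairs left 0 rows past the threshold, with a lowest adjusted p of 0.0593, 0.0507 and 0.0849 without pair 1, 2 and 3.

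In the values as deposited, the NR rows leaned upward, as did the table as a whole. Their median log2 change was 0.12 and 276 of 398 were positive, against a median of 0.05 and 7508 of 12130 rows for all tested. Rescaling the libraries by median-ratio factors moved the median of all rows to -0.01 and that of NR rows to 0.07. The paired test then passed 27 NR rows higher and 14 lower, beside 9.27% of all rows (3.80% higher and 5.47% lower). In these bulk libraries, a change in RNA per cell cannot be told apart from a change in the mix of cells. Every log2 change below is on the log2(FPKM + 1) scale, which understates the change of rows at a low level.

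**Figure D1:**
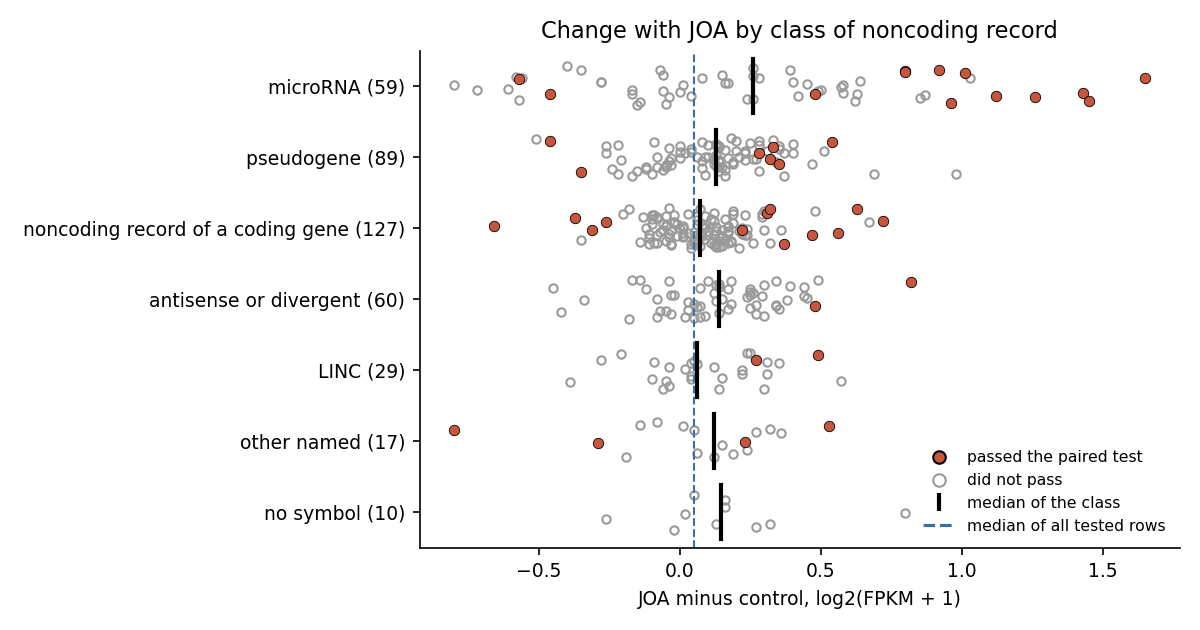
Change with JOA (x axis, JOA minus control in log2(FPKM + 1)) for each tested row of 7 classes, with the number of rows in brackets. Filled points passed the paired test, black bars are class medians and the dashed line is the median of all 12130 tested rows. The microRNA rows spread most, from -0.80 to 1.65, and their median of 0.26 lies to the right of the dashed line at 0.05.

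MicroRNA rows made up 13 of the 41 that passed the paired test, 11 higher and 2 lower of 59 tested. That is 22.0%, beside 8.16% of all tested rows and 7.17% of all tested rows with fewer than 50 fragments on average. Of the 11 higher, 4 (MIR6797, MIR6813, MIR3174 and MIR181D) met the level filter only through the JOA libraries, and without them 9 of 55 passed, 7 higher and 2 lower. The 2 lower were MIR3685 and MIR4261, and 3 of the 11 higher, MIR6813, MIR3174 and MIR4512, are only named here. The median log2 change of the 59 was 0.26, also with the 2 rows that were at 0 in all control libraries (MIR6797 and MIR6813) set to their bounds. Few fragments lie behind these rows. The median microRNA row had 24.0 fragments in all 6 libraries together, 50 of 59 rows had fewer than 60, and the 13 that passed had 5 to 290. A test on the recovered fragments themselves (limma voom with the same pairing, added after the data were seen) passed only 2 of the 13, MIR6797 and MIR4482. The ratio of JOA to control fragments had an exact 95% interval off 1 in 6 of the 13, which covers counting error only. MIR6797 and MIR4482 count in both tallies and MIR181D in the 6. MIR6797 and MIR181D met the filter through JOA alone, and MIR4482 needed JOA libraries to meet it. These results are therefore no separate support for these rows.

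MIR6797 had 0 fragments in each control library and 2, 2 and 4 fragments in JOA libraries 1, 2 and 3, which is 1.67, 1.64 and 3.34 FPKM. Against a floor of 3 fragments over the control group, the 8 JOA fragments are at least 2.77-fold higher before their own counting error, and the exact lower 95% limit of the ratio is 1.77. The row met the level filter only through the JOA libraries. It lies in an intron of RPS19, a ribosomal protein gene. MIR4482 had 2, 0 and 1 fragments in control and 8, 4 and 2 in JOA libraries, a ratio of 4.85 with a 95% interval of 1.35 to 26.3. Fragment for fragment, its JOA library 3 was no higher than control library 1. Its FPKM ranges of 0 to 1.58 and 1.72 to 6.88 did not overlap, as the rule by which it was named required. MIR4326, in an intron of ARFGAP1, had 0, 0 and 1 fragments in control and 2 in each JOA library, and its interval of 0.756 to 287 spans 1.

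MIR6739 had 3, 4 and 5 fragments in control and 6, 9 and 8 in JOA libraries, and rose from 3.10 ± 0.912 to 6.11 ± 1.17 FPKM (SD, n = 3 each, as for all such values; log2 change 0.80, SE 0.09, paired adjusted p = 0.0295). Its fragment ratio of 1.99 had an interval of 0.951 to 4.39, which spans 1. MIR3176 had 6 fragments in each control library and 9, 11 and 14 in JOA libraries, a ratio of 1.96 with an interval of 1.08 to 3.69. In both loci, every JOA library exceeded every control library, as the naming rule required. MIR3153, named like the next 2 after its values were seen, went from 6, 3 and 6 to 11, 6 and 18 fragments, a ratio of 2.42 with an interval of 1.29 to 4.78, and its groups overlapped at 6 fragments. MIR181D had 1 fragment in each control library and 3, 6 and 3 in JOA libraries, a ratio of 4.15 with a wide interval of 1.12 to 22.9. It met the level filter only through the JOA libraries, so that interval is no separate support. MIR4477B, the largest of these rows, went from 44, 45 and 33 to 59, 68 and 41 fragments, a ratio of 1.43 with an interval of 1.13 to 1.82, and its groups overlapped. A second tested row of MIR4477B had 3 fragments in control and 6 with JOA (interval 0.444 to 12.8) and did not pass. The best-covered microRNA row, MIR621, had 54.1, 55.4 and 42.8 FPKM in control and 46.4, 53.5 and 44.5 FPKM in JOA libraries and did not pass (log2 change -0.07, paired adjusted p = 0.454).

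Summed over the 59 rows, fragments per 1000000 of the library were 24.8, 24.6 and 25.3 in control and 27.9, 30.7 and 31.6 in JOA libraries, so all 3 JOA libraries were above all 3 control libraries. Pseudogene rows, summed the same way, had 1278 to 1357 per 1000000 in control and 1398 to 1498 in JOA libraries, and the antisense and divergent rows 312 to 339 and 353 to 369. Of the LINC rows, control libraries held 212 to 239 and JOA libraries 244 to 263 per 1000000. In the whole-gene rows the groups overlapped, at 8417 to 9067 and 8882 to 9107 per 1000000. After median-ratio scaling the microRNA sums (24.8 to 25.7 in control, 27.5 to 30.1 with JOA) and the pseudogene sums still did not overlap between groups. The LINC sums (up to 241 in control, from 240.3 with JOA) and the antisense and divergent sums (up to 342 and from 336) then did.

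**Figure D2:**
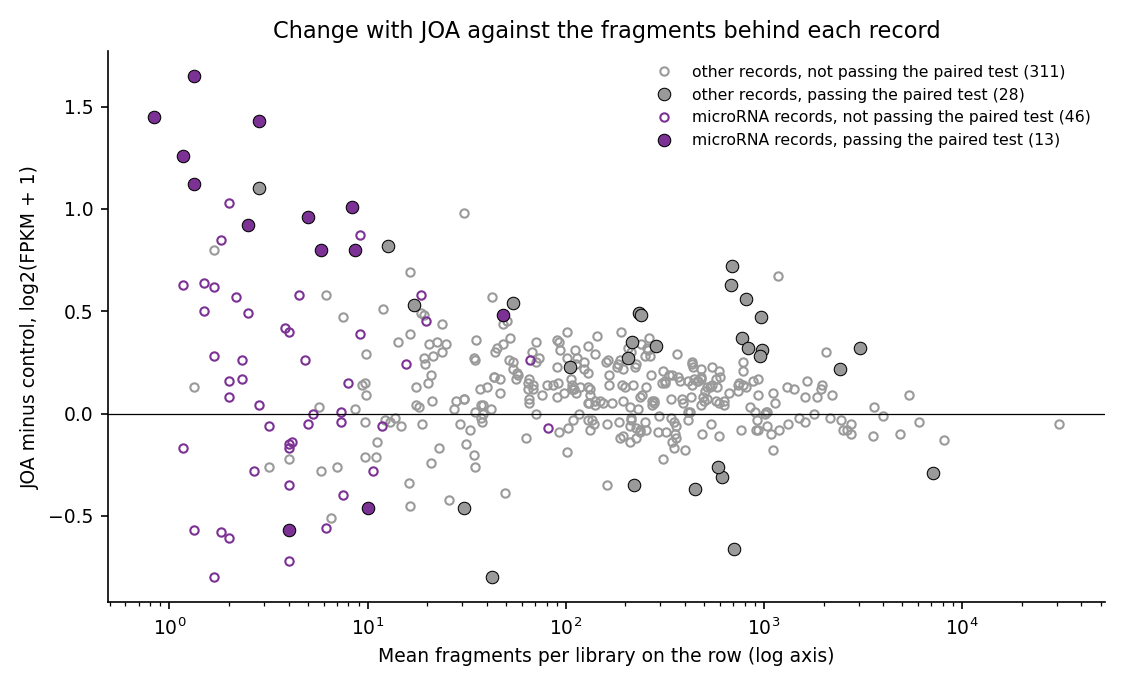
Change with JOA (y axis, JOA minus control in log2(FPKM + 1)) against the mean number of fragments per library (x axis, log scale) for the 398 tested rows. Purple points are microRNA rows, grey points are all others, and filled points passed the paired test. Most filled purple points lie at the left edge, under 10 fragments per library, and 255 of the 398 rows have a mean of 50 or more.

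Most of these small RNA rows sit in introns. Of the 59 microRNA rows, 43 lay in an intron of a gene on the same strand, 7 in an intron of a gene on the opposite strand, 9 between genes and 0 in an exon. Of the 197 RefSeq hairpins that have a row in the table, tested or not, 72.6% lay in a same-strand intron and 2.54% in a same-strand exon, so the tested rows are placed much like the rows of the table. Among all 1562 RefSeq hairpins these shares were 51.6% and 15.9%. The host gene had a tested row of its own for 26 same-strand records. In no pair did both the record and the host pass the paired test: 6 records and 2 hosts passed (beside 8.16% of all tested rows), and the median log2 change was 0.26 for the records and 0.01 for the hosts. Of the 6 records, MIR6813 and MIR3174 met the level filter through JOA alone. With so few calls, few joint calls could arise, and nothing is read from their absence.

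The hosts of MIR6739, MIR3153 and MIR3176 are given because these records passed. A larger change in the record than in the host follows in part from that choice, so nothing is read from it. IPO9, an import receptor and the host of MIR6739, had 15.1 ± 1.15 FPKM in control and 14.8 ± 0.928 FPKM with JOA (log2 change -0.03, paired adjusted p = 0.742). CKS2, a cyclin-dependent kinase subunit and the host of MIR3153, had 124 ± 6.45 and 126 ± 9.16 FPKM. CAPN15, the host of MIR3176, had 5.81, 6.07 and 6.63 FPKM in control and 6.50, 7.07 and 7.73 FPKM in JOA libraries (log2 change 0.17, paired adjusted p = 0.0776). MIR5587, in an intron of the same gene, had 24 fragments in control and 24 with JOA. Its log2 change of 0.15 was close to that of CAPN15, and it did not pass (paired adjusted p = 0.681). MIR4449 lies in DANCR, and here the point estimates have opposite signs, with a log2 change of 0.26 for the microRNA row (adjusted p = 0.484) and -0.29 for DANCR. The difference between record and host was not tested in any pair.

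SNORD121A, a C/D box snoRNA encoded in an intron of UBAP2, was the only tested snoRNA row. It had 1, 2 and 1 fragments in control and 3, 5 and 5 in JOA libraries. In the paired test it rose from 0.935 ± 0.398 to 3.16 ± 0.828 FPKM (log2 change 1.10). Its control libraries held 0.674, 1.39 and 0.738 FPKM, so it needed JOA libraries to meet the level filter. The groups did not overlap, as the naming rule required. The fragment ratio of 3.38 had an interval of 1.04 to 14.2, and SNORD121A did not pass the paired test on fragments. RNU5A-1, the U5 RNA of the spliceosome, had 8, 7 and 2 fragments in control and 6, 9 and 2 in JOA libraries and did not pass.

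Of 110 long noncoding rows (antisense and divergent, LINC, microRNA host and other named transcripts), 8 passed the paired test, 6 higher and 2 lower, which is 7.27% beside the 8.16% of all rows. Without HSPA2-AS1, which met the filter through JOA alone, 7 of 109 passed. DANCR had the highest level of them. It had 174, 261 and 166 FPKM in control libraries 1, 2 and 3 and 149, 221 and 126 FPKM in JOA libraries 1, 2 and 3, with 4765 to 10454 fragments in each. The groups overlap because libraries numbered 2 are high in both, and within each pair the JOA library was lower. DANCR fell by 0.29 on the log2 scale (SE 0.05, paired adjusted p = 0.0373), while the unpaired adjusted p was 0.596. The row is 2285 bases long, against 904 bases for the record, so it holds more than the record's exons.

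LOC102724511 had the largest fall among NR rows that passed, from 7.60, 9.06 and 5.92 FPKM to 4.07, 4.68 and 2.95 FPKM (log2 change -0.80, SE 0.05, paired adjusted p = 0.0232). Each of its JOA libraries lay below each control library, as the naming rule required, with 42 to 68 fragments in control and 21 to 34 with JOA. HSPA2-AS1, the transcript antisense to the heat shock gene HSPA2, had 0.495, 0.819 and 0.759 FPKM in control and 2.48, 1.48 and 2.05 FPKM in JOA libraries, on 5 to 8 and 14 to 23 fragments. LINC01000 had 3 tested rows of different length, of which 2 rose. The row of 403 bases went from 24.4, 28.8 and 31.7 FPKM to 32.5, 43.0 and 45.4 FPKM (log2 change 0.49), and the row of 754 bases from 14.5 ± 0.833 to 17.7 ± 1.47 FPKM (log2 change 0.27). Neither had overlapping groups, which the naming rule required of the row of 403 bases. The row of 330 bases did not pass, with 3.02, 2.25 and 3.48 FPKM in control and 1.46, 2.86 and 5.66 FPKM in JOA libraries (log2 change 0.04, paired adjusted p = 0.934).

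Outside the naming rule, 3 more long noncoding rows passed and are given for completeness. CCDC18-AS1 rose from 2.04, 2.09 and 2.81 FPKM to 3.24, 3.40 and 4.18 FPKM, on 175 to 332 fragments per library (log2 change 0.48, SE 0.06, paired adjusted p = 0.0309). LNCEGFL7OS, the transcript that overlaps EGFL7 from the opposite strand, rose from 12.1, 10.6 and 7.49 FPKM to 15.1, 11.9 and 9.08 FPKM, with overlapping groups (paired adjusted p = 0.0495). LNCEGFL7OS did not pass the paired test on fragments (adjusted p = 0.214), while CCDC18-AS1 did. EGFL7 itself had 120.0 ± 3.92 and 128 ± 4.53 FPKM and did not pass (paired adjusted p = 0.201). LOC729737 had 0.925 ± 0.348 and 1.77 ± 0.431 FPKM, also with overlapping groups, and did not pass the test on fragments. Its control libraries held 0.586, 0.908 and 1.28 FPKM, so it needed JOA libraries to meet the level filter.

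Where an antisense or divergent transcript and its partner gene were both tested, 37 pairs in all, 6 partners passed (MCM3AP, MELTF, LRP8, GATD1, RNF207 and STARD4), 1 transcript passed (CCDC18-AS1), and in no pair did both. With 8.16% of all tested rows passing, few joint calls could arise among 37 pairs, and nothing is read from their absence. CCDC18 had 5.64, 5.77 and 6.01 FPKM in control and 5.43, 5.10 and 7.02 FPKM in JOA libraries (paired adjusted p = 0.991). The nearest coding start on the other strand from CCDC18-AS1 is that of DR1, a transcriptional repressor, 96 bases away. Of the long noncoding records, 89 have a promoter in the RefSeq table, and 39 of them start within 1000 bases of a coding gene on the other strand. That neighbour lay on 1 tested row for 26, of which 5 passed, all 5 higher (beside 6.11% of all tested rows). GATD1, LRP8 and STARD4 among them were already counted with the 6 partners above. None of the 26 long noncoding records passed, so no joint call could arise. The kit marks strand, but whether strand was used in counting is not given in the sources used here, so reads of a gene and its antisense partner may not be told apart.

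**Figure D3:**
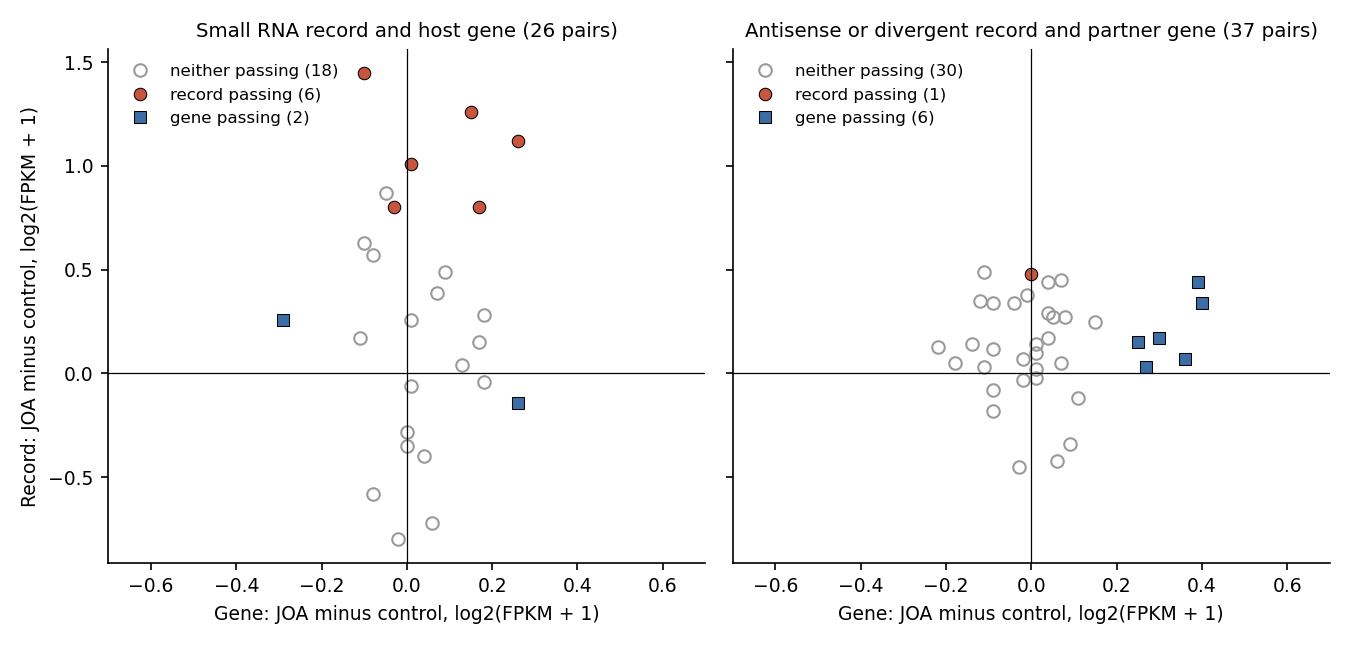
Change of a noncoding record (y axis) against change of its gene (x axis), both JOA minus control in log2(FPKM + 1), for 26 small RNA records and their hosts (left) and 37 antisense or divergent records and their partner genes (right). Red circles mark pairs in which the record passed the paired test and blue squares pairs in which the gene did, and no pair has both.

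The promoters of DANCR and CCDC18-AS1, the long RNAs with the most fragments on a single row among those that fell and those that rose, are shown from 250 bases before to 50 bases after the RefSeq start, 5′ to 3′ on the strand of the gene (GRCh38.p14, chr4:52712144-52712443 plus strand, and chr1:93345762-93346061 minus strand). Capitals mark any match to 6 motifs searched on both strands, which are the E-box CACGTG, the AP-1 site TGANTCA, the cyclic AMP element TGACGTCA, the CCAAT box, the GC box GGGCGG and the TATA box TATAAA.
DANCR: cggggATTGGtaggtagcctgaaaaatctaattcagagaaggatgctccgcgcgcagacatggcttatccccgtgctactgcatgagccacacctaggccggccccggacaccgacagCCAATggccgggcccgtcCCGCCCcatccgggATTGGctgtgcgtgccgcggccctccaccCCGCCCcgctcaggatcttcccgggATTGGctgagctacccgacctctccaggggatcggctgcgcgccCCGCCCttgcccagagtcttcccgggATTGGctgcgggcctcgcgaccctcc
CCDC18-AS1: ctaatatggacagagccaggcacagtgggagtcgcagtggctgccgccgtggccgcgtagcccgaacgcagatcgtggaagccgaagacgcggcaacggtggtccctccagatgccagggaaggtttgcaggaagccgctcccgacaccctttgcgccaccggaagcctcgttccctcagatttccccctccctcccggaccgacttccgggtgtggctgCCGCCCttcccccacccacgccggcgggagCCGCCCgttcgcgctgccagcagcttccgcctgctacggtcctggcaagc

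DANCR's window holds 5 matches to CCAAT and 3 to GGGCGG, and that of CCDC18-AS1 holds 2 to GGGCGG and none of the other 5 motifs. Of all 35116 promoters in the table, 34.6% hold CCAAT and 45.0% hold GGGCGG, against 38.5% and 60.6% of the 104 promoters listed for tested long noncoding records. CACGTG was in 7.26% of all promoters and 5.77% of those records', TGANTCA in 7.71% and 2.88%, TGACGTCA in 1.85% and 2.88%, and TATAAA in 11.5% and 8.65%. A match is a stretch of letters and shows no binding.

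Of the 7 gene lists fixed for these records, few members had a testable row, and the medians below stand beside 0.05 for all tested rows. Among hosts of small nucleolar RNAs (4 of 17 genes on an NR row, 3 tested) DANCR fell, RPL13AP5 and NOP14-AS1 did not pass, and the median log2 change was -0.08. Of the long RNAs of stress, p53 and the cell cycle, DANCR and TUG1 were tested, and TUG1 had 12.1, 13.7 and 13.3 FPKM in control and 12.1, 12.6 and 13.8 FPKM in JOA libraries (paired adjusted p = 0.796). MIR17HG, the host of the oncogenic miR-17 cluster, had 3.58, 5.87 and 2.84 FPKM in control and 4.19, 4.85 and 2.34 FPKM in JOA libraries (paired adjusted p = 0.598). MIR646HG had 1.33 ± 0.259 and 1.32 ± 0.0710 FPKM, and neither host passed. WT1-AS, antisense to the leukaemia gene WT1, was the 1 of 6 leukaemia and blood records on a row that could be tested, at 4.29 ± 2.46 and 3.94 ± 1.61 FPKM (paired adjusted p = 0.963). None of the 3 myeloid microRNA loci on a row, nor the 1 imprinted or X-linked record on a row, passed the level filter.

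Of the 127 whole-gene rows, 12 passed, 8 higher and 4 lower (9.45% beside 8.16% of all tested rows), and all 12 also passed the test on fragments. HOMER3, a scaffold protein of the Homer family, rose from 7.96, 7.36 and 10.6 FPKM to 15.1, 10.9 and 19.5 FPKM (log2 change 0.72, SE 0.08, paired adjusted p = 0.0295). PABPC1L, a poly(A)-binding protein, rose from 4.78, 5.86 and 7.84 FPKM to 8.88, 8.55 and 12.7 FPKM (log2 change 0.63, SE 0.07). SAT1, the acetyltransferase that starts polyamine breakdown, rose from 15.1, 14.4 and 16.0 FPKM to 23.1, 19.5 and 26.4 FPKM (log2 change 0.56, SE 0.06, paired adjusted p = 0.0295). In all 3 genes the lowest JOA library lay above the highest control library, as the naming rule required. The other 5 that rose were named after their values were seen. They are CCNL2, a cyclin linked to splicing, at 23.2 ± 1.56 and 29.1 ± 0.554 FPKM, ASB13, an adaptor of ubiquitin ligases, at 13.1 ± 0.482 and 17.1 ± 0.0820 FPKM, KANSL3, AKAP17A and FAM193B.

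PHPT1, the phosphohistidine phosphatase, fell from 34.8, 28.1 and 32.3 FPKM to 19.6, 20.0 and 19.2 FPKM (log2 change -0.66, SE 0.07, paired adjusted p = 0.0295). TIMM8B, a chaperone of mitochondrial protein import, fell from 33.1, 34.2 and 29.6 FPKM to 26.4, 27.9 and 26.0 FPKM (log2 change -0.26). AGBL5, a tubulin deglutamylase, fell from 7.67 ± 0.710 to 5.98 ± 0.376 FPKM, and CHLSN, which encodes cholesin, from 6.09 ± 0.443 to 4.50 ± 0.484 FPKM. None of the 4 had overlapping groups, as the naming rule required. The JOA libraries of PHPT1 lay within 1 FPKM of each other, while its control libraries spread over more than 6 FPKM.

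Pseudogene rows gave 7 of 89 passing, 5 higher and 2 lower, or 7.87%. FCGR1CP, a copy of the gene of the high-affinity Fc gamma receptor of myeloid cells, rose from 2.45, 2.48 and 1.45 FPKM to 3.90, 3.51 and 3.10 FPKM (log2 change 0.54, SE 0.09, paired adjusted p = 0.0382). FCF1P2, a copy of a ribosome assembly gene, fell from 24.3, 24.8 and 26.4 FPKM to 18.0, 19.2 and 21.5 FPKM (log2 change -0.35, SE 0.04, paired adjusted p = 0.0295). FAM133DP fell from 3.16 ± 0.556 to 2.02 ± 0.175 FPKM (log2 change -0.46), but did not pass the paired test on fragments (adjusted p = 0.0938), which 6 of the 7 did. For these 3 the groups did not overlap, as the naming rule required. GTF2IP4, WASH8P, SDHAP4 and TCAM1P, named after their values were seen, rose with log2 changes of 0.32, 0.35, 0.33 and 0.28. Reads of pseudogenes can be shared with the near-identical parent gene, so these values are uncertain.

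**Figure D4:**
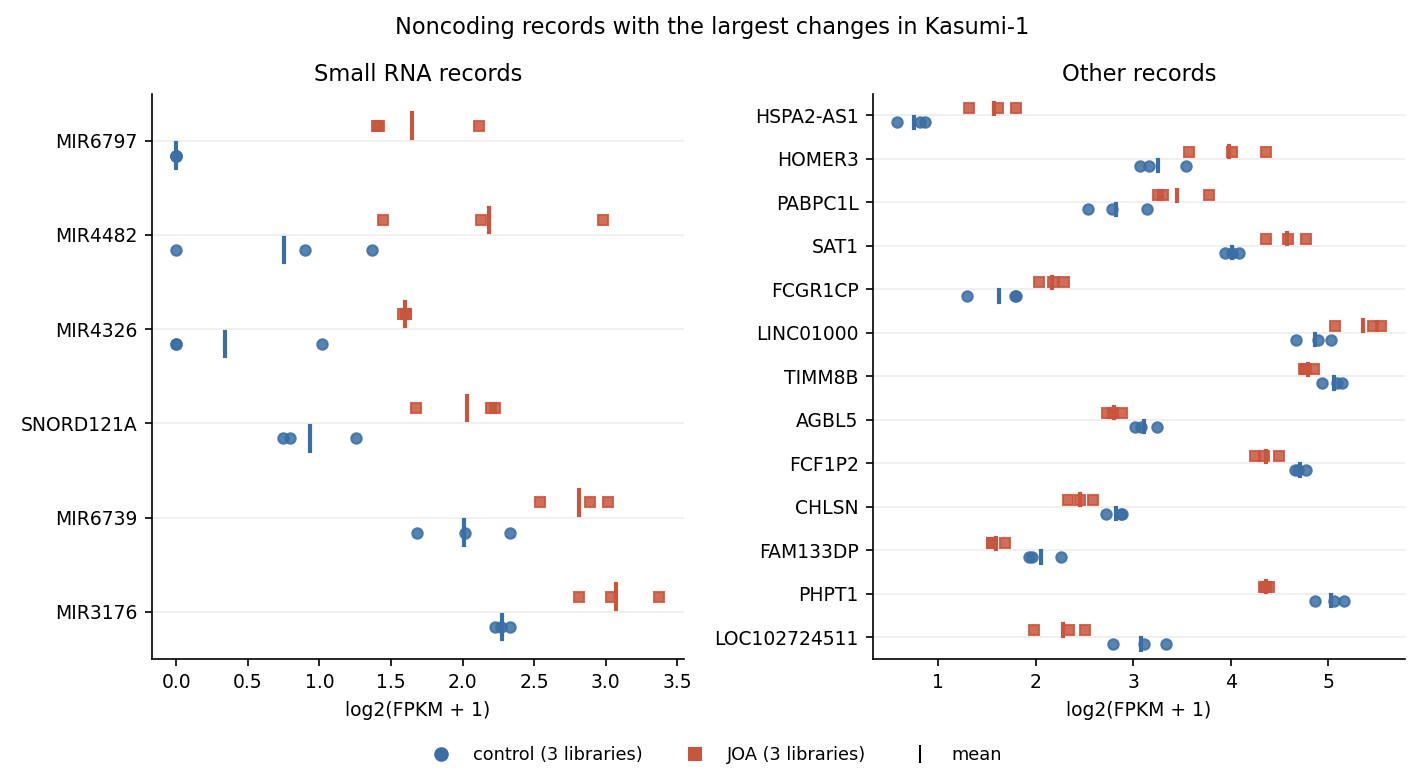
Values of the 6 small RNA records (left) and 13 other records (right) chosen by the naming rule, in log2(FPKM + 1), with 3 control libraries as blue circles, 3 JOA libraries as red squares and vertical bars for the means. The rule admits only records whose groups do not overlap, so the colours separate in every line, and LINC01000 is its row of 403 bases.

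Over all 398 rows, the control and JOA libraries did not overlap in 95, with 74 higher and 21 lower in JOA, or 23.9%, beside 23.1% of all tested rows (16.0% higher and 7.10% lower). Both shares of NR rows were close to the background. Of rows with 50 or more fragments on average, 23 of 255 passed the paired test (9.02%, beside 8.31% of all tested rows of that kind), 17 higher and 6 lower, and 22 of these 23 also passed on fragments. Of rows with fewer than 50, 18 of 143 passed (12.6%, beside 7.17%), and 4 of these 18 also passed on fragments. The 18 include 5 rows that met the filter through JOA alone (MIR6797, MIR6813, MIR3174, MIR181D and HSPA2-AS1). MIR6797 and HSPA2-AS1 are also among the 4, so the higher share rests in part on how rows were admitted. Over the 398 rows the paired test on fragments passed 82 (69 higher and 13 lower, beside 25.0% of all rows, 18.1% higher and 6.84% lower), of which 26 were among the 41.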

How the data were processed

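Per the labels, Trizol was used to extract Kasumi-1 RNA and the TruSeq Stranded mRNA kit to build libraries. The authors deposited FPKM values, 1 row per sequence record. The tools listed in the submitters' processing notes are HTSeq, Cufflinks, HISAT2 and Trimmomatic, and the build is hg38, without versions or roles. The NB4 table was not used here. The records and lists were chosen with earlier results of these data known.

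Values are whole multiples of 1 fragment per row (25040 of 25068 rows, 99.9%, within 0.01 of a fragment), which gave fragments, library totals and row lengths. Intervals and floors cover counting error only (exact, 95%; 3 fragments per group). Of 1554 rows, 1459 were named from RefSeq and 59 from GENCODE. Rows at 1 FPKM or more in 3 libraries were tested with limma 3.58.1 (R 4.3.3) on log2(FPKM + 1), with a variance trend, 2-sided, adjusted by Benjamini-Hochberg over 12130 rows. Python 3.11.15 read the tables.

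Same-numbered libraries correlated in their deviations from the group mean at 0.329, 0.499 and 0.423, and other pairs at -0.0619 or below. Among NR rows alone the same-numbered values were 0.319, 0.173 and 0.33. The numbers were therefore taken as pairs, from the data and not from a label. Deviations cancel within a group, so the low values of the other pairs are no separate evidence. Named records are the largest 12 rises and 12 falls (7 found) that passed the paired test without overlap and with 2 FPKM or more in the higher group, the 10 highest levels, and up to 4 members of each list. Other named records were chosen after their values were seen. The fits were tested on simulated data. Alternatives were other pseudocounts, filters, scalings, summed labels, left-out libraries and voom.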

Additional observations from a re-analysis of the deposited data

How the results depend on the processing

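Without pairing, 0 NR rows passed under every alternative run, which were a pseudocount of 0.1, no filter, a filter at 5 FPKM, median-ratio scaling, summed labels, small RNA records left out, voom on fragments, and each library left out in turn (range 0 to 0). At an unadjusted p under 0.05 limma counted 33 to 113 rows in these settings. With the replicate block the number was 41. In the paired test it was 0 with no replicate block, 0 without the filter on low values (where 1554 rows were tested), 82 by voom on fragments, 23 when only rows with 50 or more fragments were counted, and 0 to 0 when a pair was left out. It was 35 of 398 with a pseudocount of 0.1 (beside 951 of all 12130 rows) and 41 of 398 with median-ratio scaling (beside 1124 of 12130). With summed labels it was 40 of 387 (beside 1003 of 12026). At 5 FPKM it was 40 of only 135 NR rows tested, beside 1502 of all 7112 rows, so both shares were higher there. In that order of settings, 35, 37, 39 and 24 of these rows were among the 41. The cause of these shifts was not tested, beyond the fewer samples when a pair is left out. For the 19 records chosen by change, 0 of 209 alternative values changed sign. By the naming rule their groups do not overlap. Neither a left-out library nor the replicate block could therefore change a sign, and nothing is read from this count. Depth limits the small RNA rows most, where the median row had 4.00 fragments per library.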
